A study of Mus musculus with 26 samples.

Results

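The 10 genes described here are markers of endothelial cells, the cells that line blood vessels: Pecam1, Cdh5, Kdr, Flt1, Tek, Tie1, Nos3, Emcn, Cd34 and Aplnr. They were taken as every probe set of the expression array whose annotated gene symbol was exactly 1 of these names, which gave 15 of the 45101 probe sets and 10 of the 14854 genes tested. Flt1 had 4 probe sets, Cdh5 and Aplnr had 2 each, and the other 7 genes had 1 each. All 15 probe sets passed the filter on dim values, which kept probe sets with a mean log2 value above the 30th percentile (7.47), so no member was left out. Where a gene had several probe sets, its brightest one gave the gene's value, and the others are reported beside it.

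The study measured RNA of TA/EDL muscle (tibialis anterior with extensor digitorum longus, from the front of the lower leg) in 26 mice, 1 array per mouse, in 4 groups. FLOX mice carried floxed Ppargc1a alleles and served as the genotype controls, and their MKO littermates were knockouts of that gene in skeletal muscle; both had a mixed C57/BL6 and 129 background and lived in single cages. Free food intake on AIN-93M was followed for at least 10 days, after which control-diet mice (6 FLOX, 7 MKO) received 90% of it, and calorie-restricted (CR) mice (6 FLOX, 7 MKO) received 80% for 1 week and then 60%, as a diet made for 40% restriction, for about 11 weeks. The control diet was therefore itself slightly below free feeding in both genotypes. The sources used here give neither the promoter that drives the muscle Cre nor the age of the mice.

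Endothelial cells form the capillaries that lie along each muscle fibre. Vascular endothelial growth factors act on the receptor tyrosine kinases Kdr and Flt1, angiopoietins act on Tek with Tie1 as its partner, and apelin acts on Aplnr. PGC-1a, the protein made from Ppargc1a, is a transcriptional coactivator known for mitochondrial genes and, in muscle fibres, for driving Vegfa and capillary growth. Because the whole muscle was ground up, fewer endothelial cells and less RNA per cell cannot be told apart in any value below.

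The targeted gene went against its label. All 5 Ppargc1a probe sets were brighter in the mice labelled MKO than in FLOX mice, 1.53- to 1.76-fold on the control diet and 1.34- to 1.57-fold on CR, each past an adjusted p of 0.05 (limma, Benjamini-Hochberg). When every passing probe set was tested, 17.9% were called in either direction between the genotypes on the control diet and 16.8% on CR. The sources used here do not say whether these probe sets lie inside the deleted part, so this neither checks nor overturns the label, and the genotype is called "labelled MKO" below. Fast fibre genes were bright: the dimmest of 11, Myh2, had a group mean intensity of at least 15143, against array medians between 212 and 232. No other muscle was compared, so these values do not check the TA/EDL label. A pair of arrays stood apart within their groups by high slow fibre transcripts, control-diet FLOX mouse 1 and CR mouse 6 labelled MKO, and results that change without them are marked as such (an alternative added after the data were seen).

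Promoter sequences are shown for 3 members that the results below set side by side: Emcn and Cd34, which were lower on CR in both genotypes, and Kdr, which was called lower on CR in the mice labelled MKO and not in FLOX mice, a difference between the genotypes that itself did not pass its test. Of the 10 members, 6 matched the RefSeq promoter table (GRCm38.p6), which gives the 250 bases before and 50 bases after a gene's start: Kdr, Flt1, Tek, Tie1, Emcn and Cd34. The windows were searched on both strands for 2 forms of the core bound by ETS factors, CCGGAAG and CAGGAAG, and for the forkhead core GTAAACA; these families regulate many endothelial genes. The letters of the ETS forms overlap in GGAAG. Of the 3 motifs, CAGGAAG was found in Emcn and in Cd34, as its reverse complement and marked in capitals, starting 174 and 142 bases before the start. The other 4 windows held none of the 3 motifs. For comparison, 13.3% of all 32851 promoters of this length held CAGGAAG, 8.86% CCGGAAG, 20.9% either of these, and 3.65% GTAAACA. A match in so short a window is a description of its letters and not of a bound site. The 250 bases before the start are printed 5′ to 3′ on the gene's strand, at chr3:137340828-137341077 (plus strand) for Emcn, chr1:194938571-194938820 (plus strand) for Cd34 and chr5:75978456-75978705 (minus strand) for Kdr.
Emcn: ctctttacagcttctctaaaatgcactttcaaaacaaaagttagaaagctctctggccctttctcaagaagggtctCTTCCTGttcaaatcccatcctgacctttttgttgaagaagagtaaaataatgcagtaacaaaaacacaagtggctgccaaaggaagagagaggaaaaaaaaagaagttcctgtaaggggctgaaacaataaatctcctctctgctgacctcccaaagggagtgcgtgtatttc
Cd34: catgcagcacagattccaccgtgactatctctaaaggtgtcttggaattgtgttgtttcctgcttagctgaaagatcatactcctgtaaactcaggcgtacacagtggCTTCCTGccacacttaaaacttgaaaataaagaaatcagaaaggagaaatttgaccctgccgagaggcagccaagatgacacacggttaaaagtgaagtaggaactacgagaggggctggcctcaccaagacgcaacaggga
Kdr: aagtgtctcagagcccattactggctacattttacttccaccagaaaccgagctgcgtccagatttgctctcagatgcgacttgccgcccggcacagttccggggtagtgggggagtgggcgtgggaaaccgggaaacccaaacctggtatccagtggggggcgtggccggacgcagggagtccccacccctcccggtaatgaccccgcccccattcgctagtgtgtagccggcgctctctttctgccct

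The members were mostly lower on CR and mostly lower in the mice labelled MKO, by small amounts. Mean intensity was lowest in CR mice labelled MKO for 9 of the 10 members, against 28.4% of all genes, and highest in control-diet FLOX mice for 8 of the 10, against 28.2%. The exceptions were Flt1, which was lowest in control-diet mice labelled MKO and highest in CR FLOX mice, and Kdr, which was highest in control-diet mice labelled MKO. No member was called higher in any of the 7 comparisons fitted. Apart from Aplnr, no member differed by more than 1.41-fold in the probe set used for its gene.

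**Figure D1:**
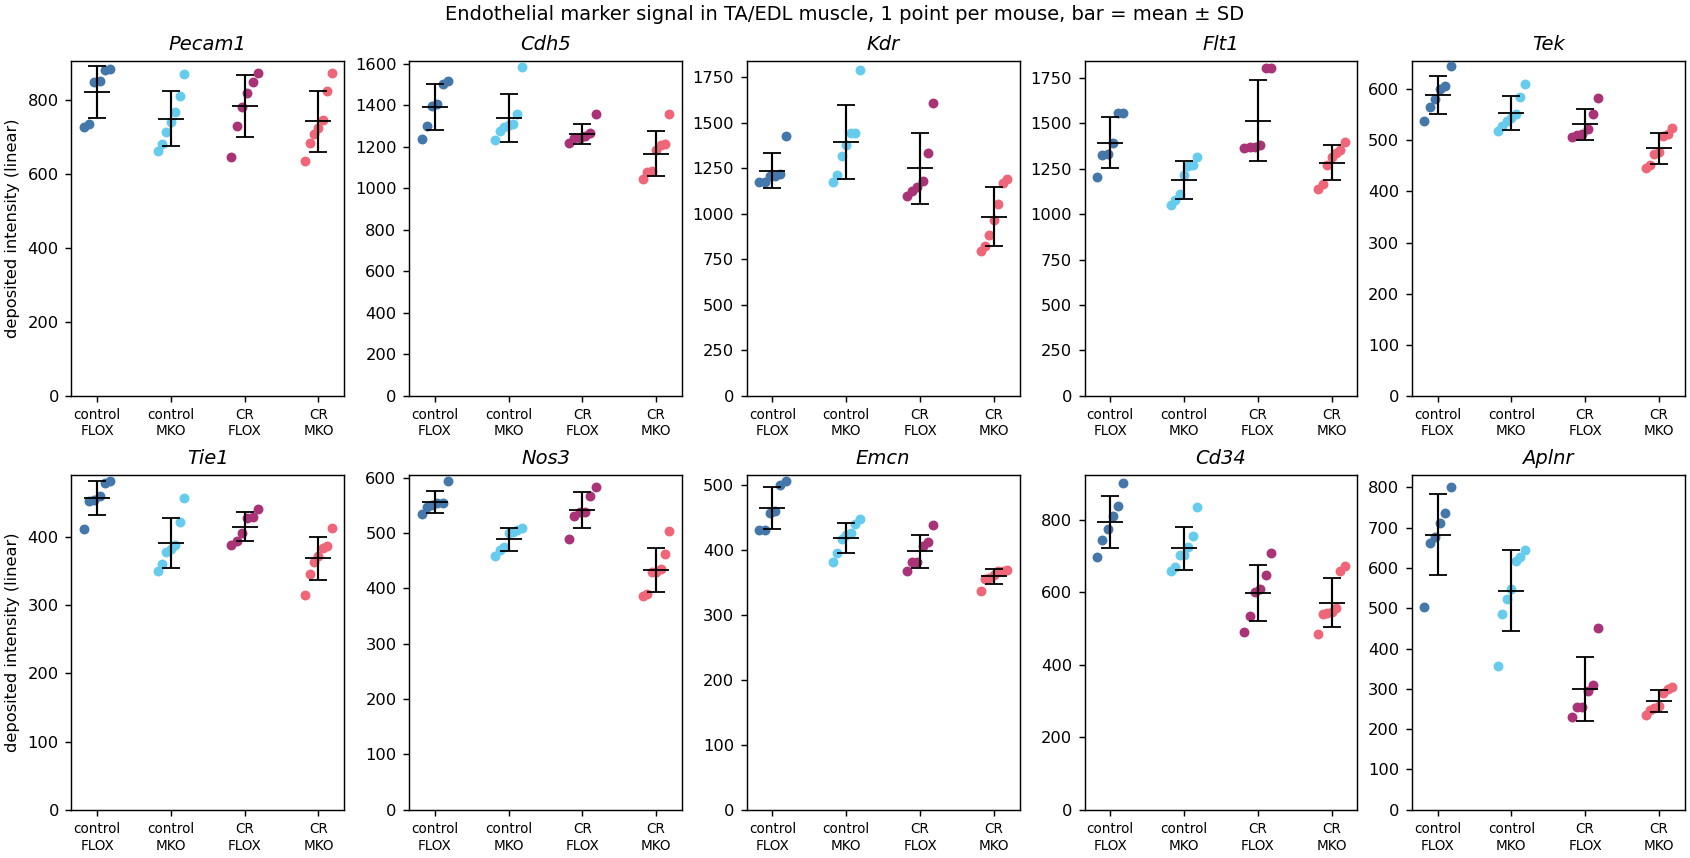
Deposited intensity (linear scale, own axis from 0 in each panel) of the probe set used for each of the 10 endothelial markers, with 1 point per mouse in the 4 diet and genotype groups (horizontal place within a group has no meaning) and black bars for mean ± SD. Aplnr fell from means of 682 and 544 on the control diet to 299.5 and 269.5 on CR, while most other panels show overlapping groups.

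CR against control diet was compared first within FLOX mice (6 against 6) and within mice labelled MKO (7 against 7); these are different mice, although 1 fit over all 26 arrays supplied a shared estimate of the spread. In FLOX mice 3 of the 10 members were called lower, Aplnr, Cd34 and Emcn, and 0 higher, with a median log2 change of -0.14 over the members and 0.00 over all genes. Of all genes tested, 5.37% were called lower there, 4.66% higher and 10% in either direction (adjusted p under 0.05). In mice labelled MKO 7 of the 10 were called lower, these 3 and Cdh5, Kdr, Tek and Nos3, with a median of -0.19, against 8.48% of all genes called lower, 6.64% higher and 15.1% in either direction. Averaged over the genotypes the same 7 members were called, with a median of -0.17, against 12.6% of all genes called lower, 11.2% higher and 23.8% in either direction. A call in 1 genotype and not in the other is not a difference between them; that difference is tested further on.

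Aplnr, the receptor for apelin and a marker of sprouting vessels, had the largest change of the members. Its intensity in FLOX mice had a lowest, median and highest value of 503, 695 and 801 on the control diet and of 229.6, 275 and 452 on CR, so that every CR mouse lay below every control-diet mouse. It was 2.24-fold lower on CR (log2 change -1.17 ± 0.135 SE, limma adjusted p = 4.2e-06). In mice labelled MKO the values were 357, 548 and 646 on the control diet and 234, 258 and 305 on CR, again without overlap, a 1.94-fold lower level (log2 change -0.95 ± 0.125 SE, adjusted p = 1.07e-05). Ranked by the size of the log2 change among all 14854 genes, Aplnr stood at place 10 in FLOX mice and at place 16 in mice labelled MKO. Its second probe set moved the same way by less, 1.44-fold in FLOX mice (adjusted p = 7.41e-06) and 1.33-fold in mice labelled MKO (adjusted p = 2.65e-05), where 9.72% and 14.7% of all passing probe sets were called in either direction. The size of the change therefore depended on the probe set, and its direction and call did not. Of the members, only Aplnr had non-overlapping groups in FLOX mice (3.08% of all genes were lower without overlap), and Aplnr and Emcn did in mice labelled MKO (2.03% of all genes).

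Cd34 and Emcn, both sialomucins of the cell surface, were the other members called lower on CR in both genotypes. Cd34, which is also carried by fibroblast-like progenitors and blood progenitors, ranged from 696 to 902 with a median of 792 in control-diet FLOX mice and from 489.7 to 708 with a median of 605 on CR. Of the 6 CR mice, 5 lay under the lowest control-diet value, and the level was 1.32-fold lower (adjusted p = 0.00186, log2 change -0.40 ± 0.0819 SE). In mice labelled MKO its range went from 657 to 835 (median 703) to 484 to 672 (median 546), a 1.26-fold lower level (adjusted p = 0.00332).
Emcn, a marker of capillary and venous endothelium, ranged from 431 to 506 (median 458) in control-diet FLOX mice and from 367 to 438 (median 394) on CR. In mice labelled MKO it ranged from 382 to 447 (median 423) on the control diet and from 337 to 369.6 (median 361) on CR, without overlap. Emcn was 1.16-fold lower on CR in either genotype (adjusted p = 0.00325 in FLOX mice and 0.00122 in mice labelled MKO). Its mean went from 464 to 398 in FLOX mice and from 419 to 359 in mice labelled MKO. The fold was small, but each shift exceeded the standard deviations within the groups, which were 11.3 to 32.5.

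Among the receptors for vascular endothelial growth factors, Kdr (VEGFR2), which carries most of the growth signal, and Flt1 (VEGFR1), which binds the same ligand and limits it, were called differently. Kdr in FLOX mice ranged from 1173 to 1427 (median 1209.5) on the control diet and from 1095 to 1609 (median 1164) on CR, and the ranges covered each other (log2 change 0.01, 95% interval -0.21 to 0.22, adjusted p = 0.985). In mice labelled MKO it ranged from 1172 to 1789.6 (median 1381) on the control diet and from 794 to 1191 (median 964) on CR. There 6 of 7 CR mice lay below every control-diet mouse, and Kdr had a 1.41-fold lower level (log2 change -0.50 ± 0.0972 SE, adjusted p = 0.000775).
Flt1 was the only member with a positive value in both diet comparisons, 0.11 on the log2 scale in each, and neither passed the test (adjusted p = 0.451 in FLOX mice and 0.362 in mice labelled MKO). Its median intensity in FLOX mice went from 1361 to 1376 between control diet and CR, and in mice labelled MKO from 1217 to 1317. Its 4 probe sets all had positive values in both genotypes, and 1 of them passed when the genotypes were averaged (1.07-fold higher on CR, adjusted p = 0.0398), as did 23.9% of all passing probe sets in either direction.

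Tek, the angiopoietin receptor, and Tie1, its partner without a well-established ligand, both had lower means on CR. Tek medians were 591 on the control diet and 517 on CR in FLOX mice (log2 change -0.14, adjusted p = 0.0605) and 544 and 478 in mice labelled MKO, where it was 1.14-fold lower (adjusted p = 0.00554). In FLOX mice the Tek call was gained when any of 3 mice was left out, control-diet FLOX 4, control-diet 4 labelled MKO or CR FLOX 6 (adjusted p between 0.0325 and 0.0492). Tie1 medians were 457 and 417 in FLOX mice and 382 and 372 in mice labelled MKO, and neither comparison passed (adjusted p = 0.164 and 0.373). Averaged over genotypes Tie1 had an adjusted p = 0.0522, and leaving out any of 6 mice brought it below 0.05 (to between 0.0257 and 0.0487): control-diet FLOX 4, CR FLOX 5, and, of the mice labelled MKO, control-diet 3 and 5 and CR 2 and 5.

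Cdh5 (VE-cadherin) and Pecam1 (CD31) hold endothelial cells together at their junctions. Cdh5 ranged from 1235 to 1587 (median 1308) in control-diet mice labelled MKO and from 1046 to 1361 (median 1185) on CR, 1.14-fold lower (adjusted p = 0.0201). That call was lost without control-diet mouse 4 labelled MKO (adjusted p = 0.0543) or CR mouse 7 labelled MKO (0.0546). The Cdh5 call was also lost when only the groups compared were fitted (0.0523). In FLOX mice its medians were 1401 and 1248 (log2 change -0.14, adjusted p = 0.174). The second, dimmer Cdh5 probe set did not pass in either genotype (adjusted p = 0.0822 in FLOX mice and 0.464 in mice labelled MKO) and passed when they were averaged (1.06-fold lower, adjusted p = 0.0367).
Pecam1 had the smallest log2 change of the members in mice labelled MKO (-0.02) and in the average over genotypes (-0.04), while in FLOX mice those of Kdr and Nos3 were smaller. Its medians were 851 on the control diet and 802 on CR in FLOX mice and 740.3 and 724 in mice labelled MKO. The 95% interval of its log2 change was -0.23 to 0.09 in FLOX mice and -0.17 to 0.14 in mice labelled MKO (adjusted p = 0.684 and 0.924), so a fall as large as that of Emcn was inside the first interval and not inside the second.
Nos3, the endothelial nitric oxide synthase, had medians of 553 and 538 in FLOX mice (adjusted p = 0.727) and of 500.4 on the control diet and 429.6 on CR in mice labelled MKO. In the latter it was 1.12-fold lower (adjusted p = 0.0136). Averaged over genotypes it was 1.07-fold lower (adjusted p = 0.0268), a call lost without control-diet FLOX mouse 2 (0.053), CR FLOX mouse 3 (0.0546) or the arrays rich in slow fibre transcripts (0.0605).

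**Figure D2:**
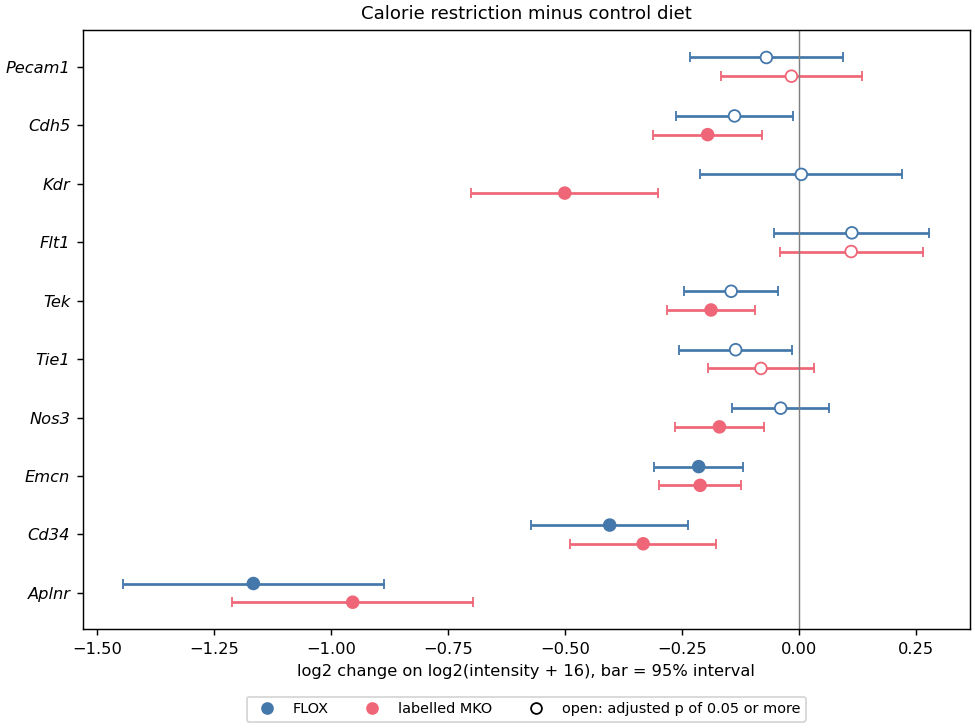
Log2 change on CR against the control diet for each endothelial marker, in FLOX mice (blue) and in mice labelled MKO (red), on the log2(intensity + 16) scale; bars are 95% intervals and filled points passed an adjusted p of 0.05. Aplnr lies farthest to the left at -1.17 and -0.95, Flt1 lies at 0.11 in both, and the Kdr points are 0.01 and -0.50.

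The genotypes were then compared within each diet (7 mice labelled MKO against 6 FLOX mice each time). On the control diet 4 of the 10 members were called lower in mice labelled MKO, Flt1, Tie1, Nos3 and Emcn, with a median log2 change of -0.14 over the members and -0.02 over all genes. Of all genes, 10.2% were called lower, 9.05% higher and 19.3% in either direction. On CR 5 of the 10 were called lower, these 4 and Kdr, with a median of -0.13, against 9.05% of all genes called lower, 8.23% higher and 17.3% in either direction. Averaged over the diets all 10 members had negative values, as did 56.8% of all genes, and 5 were called lower, Flt1, Tek, Tie1, Nos3 and Emcn, with a median of -0.12, against 18.1% of all genes called lower, 14.9% higher and 33% in either direction. These comparisons use the same groups of mice as the diet comparisons: control-diet FLOX mice are the reference in the first and in the diet effect of FLOX mice, so the values are not independent of each other.

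Nos3 had the lowest adjusted p of the members in the genotype comparison on CR and in the average over the diets. On the control diet its intensity ranged from 535 to 594 (median 553) in FLOX mice and from 459 to 509 (median 500.4) in mice labelled MKO, with every mouse labelled MKO below every FLOX mouse; 3.82% of all genes were lower without overlap in that comparison. Its log2 change was -0.18 ± 0.0485 SE, a 1.13-fold lower level (adjusted p = 0.00862). On CR it ranged from 490.2 to 584 (median 538) in FLOX mice and from 387 to 503 (median 429.6) in mice labelled MKO, 1.24-fold lower (log2 change -0.31 ± 0.0485 SE, adjusted p = 3.23e-05). There 6 of 7 mice labelled MKO lay below every FLOX mouse, and 0 members had fully separate groups (4.54% of all genes were lower without overlap). The Nos3 calls held in every one of the 39 alternatives run for each diet.

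Members of both receptor pairs were lower in the mice labelled MKO. Flt1 ranged from 1203 to 1558 (median 1361) in control-diet FLOX mice and from 1049.5 to 1312 (median 1217) in control-diet mice labelled MKO, 1.17-fold lower (adjusted p = 0.039). On CR its ranges were 1364 to 1805 (median 1376) and 1138 to 1398 (median 1317), also 1.17-fold lower (adjusted p = 0.0408). Averaged over diets each of the 4 Flt1 probe sets was called lower, by 1.09- to 1.17-fold (adjusted p between 0.00208 and 0.0486 when all passing probe sets were tested, 31.7% of which were called in either direction). The Flt1 call within a diet was fragile. On the control diet it was lost without any of control-diet FLOX mice 4, 5 and 6 or control-diet mice 1, 5 and 6 labelled MKO (adjusted p between 0.0611 and 0.109). On CR it was lost without any of CR FLOX mice 5 and 6 or CR mice 4, 6 and 7 labelled MKO (0.0597 to 0.12), and without the arrays rich in slow fibre transcripts (0.0978). A fit of only the groups compared also lost it on CR (0.0579). Median centring lost the Flt1 call on the control diet (0.0847) and on CR (0.0907).
Tie1 ranged from 412 to 482 (median 457) in control-diet FLOX mice and from 349 to 456 (median 382) in those labelled MKO, with 5 of 7 below every FLOX mouse, 1.16-fold lower (adjusted p = 0.00684). On CR its medians were 417 and 372, 1.12-fold lower (adjusted p = 0.0434). That call was lost without any of CR FLOX mice 2, 3, 5 and 6 or CR mice 3, 4, 6 and 7 labelled MKO (0.056 to 0.102). It was also lost without the arrays rich in slow fibre transcripts (0.062), with quantile normalisation (0.0981) and with median centring (0.113).
Tek passed only in the average over diets (1.08-fold lower, adjusted p = 0.0142). On CR its medians were 517 and 478 (adjusted p = 0.0599), and it passed there without any 1 of 3 mice labelled MKO, control-diet 4 and CR 1 and 5 (adjusted p between 0.0372 and 0.0492).

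Kdr did not follow the other receptors on the control diet. Its median was 1381 in mice labelled MKO and 1209.5 in FLOX mice (log2 difference 0.16, 95% interval -0.05 to 0.37, adjusted p = 0.282), the only positive genotype value of a member. On CR the order was the opposite, with medians of 964 and 1164 and 5 of 7 mice labelled MKO below every FLOX mouse, 1.27-fold lower (log2 change -0.34 ± 0.101 SE, adjusted p = 0.018). This call rested on CR FLOX mouse 4, the brightest of its group at 1609, without which the adjusted p was 0.0643. The test of the difference itself, the diet effect in mice labelled MKO minus that in FLOX mice, gave -0.51 for Kdr (95% interval -0.80 to -0.21). Its unadjusted p was 0.00153 and its adjusted p 0.786, so it did not pass over all genes. Kdr was the 1 member of 10 with an unadjusted p under 0.05 there, where 720 of all 14854 genes had one, and 0 genes and 0 members were called in that test by limma (0% of all genes). For the other 9 members the diet effects of the genotypes differed by -0.13 to 0.21 on the log2 scale (adjusted p = 0.999 for each), with 95% intervals as wide as -0.17 to 0.59 for Aplnr.

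Emcn was 1.1-fold lower in mice labelled MKO on either diet, with medians of 458 and 423 on the control diet (adjusted p = 0.0247) and of 394 and 361 on CR (adjusted p = 0.0307). On the control diet that call was lost without any of control-diet FLOX mice 1 and 6 or control-diet mice 3 and 6 labelled MKO (adjusted p between 0.0529 and 0.0844), and without the arrays rich in slow fibre transcripts (0.0739). A fit of only the groups compared also lost the control-diet call (0.0646). On CR it was lost without any of CR FLOX mice 1, 2 and 4 or CR mice 3 and 5 labelled MKO (0.0503 to 0.0987). Quantile normalisation (0.0539) or median centring (0.057) also lost the Emcn call on CR.
The other members did not pass in either diet. Aplnr had medians of 695 in FLOX mice and 548 in mice labelled MKO on the control diet (log2 change -0.33, 95% interval -0.60 to -0.06, adjusted p = 0.0784). It passed without control-diet FLOX mouse 3 (0.0253) or CR FLOX mouse 4 (0.0378), and its second probe set passed with all mice (1.15-fold lower, adjusted p = 0.0233). On CR its medians were 275 and 258 (adjusted p = 0.599). Averaged over diets Aplnr had an adjusted p = 0.065 and passed without control-diet FLOX mouse 3 (0.0245), CR FLOX mouse 6 (0.0353) or control-diet mouse 4 labelled MKO (0.047). Pecam1, Cdh5 and Cd34 had log2 changes between -0.13 and -0.06 on either diet, each with an interval that included 0. Averaged over diets Cdh5 passed without control-diet mouse 4 (0.0316) or CR mouse 5 (0.0403) labelled MKO.

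**Figure D3:**
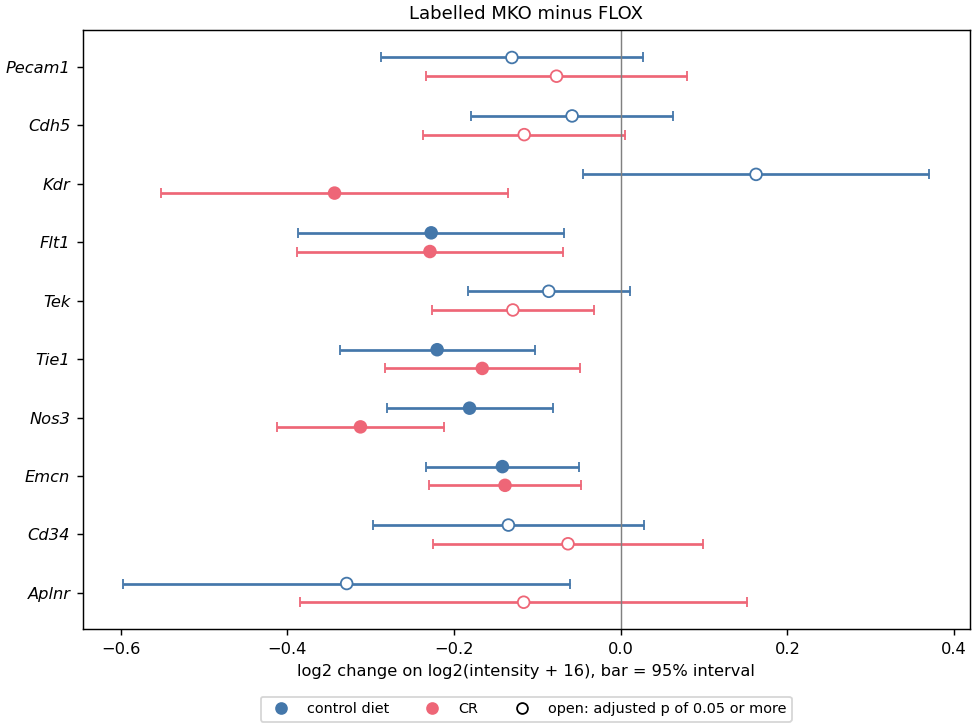
Log2 difference of mice labelled MKO minus FLOX mice for each endothelial marker, on the control diet (blue) and on CR (red), with 95% intervals; filled points passed an adjusted p of 0.05. Kdr is the only marker with a point to the right of 0, at 0.16 on the control diet, and the Nos3 points lie at -0.18 and -0.31.

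Other endothelial genes were read from a list of 39, of which 37 were tested. Averaged over diets 25 of the 37 were called lower in mice labelled MKO and 0 higher (median log2 change -0.16), with 11 called lower on the control diet and 12 on CR, where 18.1%, 10.2% and 9.05% of all genes were called lower. The examples are Rasip1, needed for vessel lumens (1.12-fold, adjusted p = 7.12e-05), and Cav1, the coat protein of caveolae that also binds Nos3 (1.15-fold, adjusted p = 0.000125). Gpihbp1, which holds lipoprotein lipase on capillaries, fell 1.3-fold on the control diet, from a mean of 1563 to 1186 (adjusted p = 0.00311). For diet, 5 of the 37 were called lower in FLOX mice, 10 in mice labelled MKO and 14 in the average, and 0 higher in any of these (median -0.11 in the average), against 5.37%, 8.48% and 12.6% of all genes called lower. The examples there are Cd93 (1.21-fold, adjusted p = 5.06e-05) and Ptprb, the phosphatase that restrains Tek (1.24-fold, adjusted p = 8.85e-05).

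Ligands and binding partners of the members were read from 29 genes, of which 25 were tested. Averaged over diets 10 were called lower and 3 higher in mice labelled MKO (median -0.06), against 18.1% of all genes called lower and 14.9% higher. Vegfb, a ligand of Flt1 that Kdr does not bind, had the largest difference: its mean intensity was 2118 in FLOX mice and 1123 in mice labelled MKO on the control diet, and 2117 and 1165 on CR. That was 1.87-fold lower (adjusted p = 2.24e-11) and 1.81-fold lower (adjusted p = 4.13e-11). Nosip, which binds Nos3 and lowers its activity, rose 1.15-fold on the control diet (adjusted p = 0.000261) and 1.16-fold on CR (adjusted p = 0.000116). Averaged over genotypes, 11 of the 25 were called lower on CR and 2 higher (median -0.09), where 12.6% of all genes were called lower and 11.2% higher. Angpt1, the activating ligand of Tek, fell 1.23-fold in FLOX mice (adjusted p = 0.0248) and 1.38-fold in mice labelled MKO (adjusted p = 0.000212). Nrp1, the coreceptor of Kdr, was 1.42-fold lower on CR in mice labelled MKO (adjusted p = 0.000353). In FLOX mice its log2 change was -0.22 (adjusted p = 0.179). For the difference of diet effects between the genotypes, 0 of the 25 were called, as were 0% of all genes. Vegfd rose on CR, 1.27-fold in FLOX mice (adjusted p = 0.00154) and 1.18-fold in mice labelled MKO (adjusted p = 0.00906). Ptprb and Cav1 belong to this list as well as to the previous one.

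The main ligands of the growth factor receptors and of Aplnr are given for their roles; they were singled out after their values were seen. Vegfa, which Kdr and Flt1 both bind, had mean intensities of 2595 ± 301 (SD, n = 6) in control-diet FLOX mice, 2198 ± 192 (n = 7) in control-diet mice labelled MKO, 2500.0 ± 279.7 (n = 6) in CR FLOX mice and 1874 ± 389 (n = 7) in CR mice labelled MKO. It was lower in mice labelled MKO, 1.35-fold on CR (limma adjusted p = 0.00338) and 1.26-fold averaged over diets (adjusted p = 0.000746), and its difference on the control diet did not pass (log2 change -0.23, adjusted p = 0.109). No diet comparison of Vegfa passed (adjusted p = 0.832 in FLOX mice and 0.0896 in mice labelled MKO).
Apln, which encodes apelin, showed no called difference with diet, unlike its receptor: its log2 change on CR was -0.01 ± 0.05 SE in FLOX mice (adjusted p = 0.955) and -0.03 ± 0.05 SE in mice labelled MKO (adjusted p = 0.751). Averaged over diets Apln was 1.11-fold lower in mice labelled MKO (adjusted p = 0.00351).

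Of 23 genes of arterial, venous, tip cell and lymphatic endothelium 19 were tested, and averaged over diets 7 were called lower in mice labelled MKO and 0 higher (median -0.06), beside 18.1% of all genes called lower and 33% in either direction. They included Nr2f2, the factor that sets venous identity (1.2-fold, adjusted p = 3.1e-05), and Ephb4, the venous ephrin receptor, which was 1.71-fold lower on the control diet (adjusted p = 0.00106). Averaged over genotypes 5 of the 19 were called lower on CR and 0 higher (median -0.04, 12.6% of all genes called lower), among them Notch1 (1.11-fold, adjusted p = 0.003).

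Markers of other cells of the muscle moved with the members in part. No intensity of the table was at 0, so the absence of a marker cannot be read from it. The counts on CR below stand beside 12.6% of all genes called lower and 11.2% higher. On CR, averaged over genotypes, 11 of 12 tested fibroblast and progenitor markers were called lower and 0 higher (median -0.37), with Col3a1 2.81-fold lower (adjusted p = 2.57e-07) and Thy1 1.29-fold lower (adjusted p = 5.68e-07). Their summed intensity ranged from 26219 to 32735 in control-diet FLOX mice and from 17011 to 24834 in CR FLOX mice, and in mice labelled MKO from 27913 to 33998 and from 16273 to 25876. Of 16 pericyte and smooth muscle markers 1 was called lower on CR and 0 higher (median 0.04). Of 14 macrophage and leukocyte markers 2 were lower and 0 higher, with a median of -0.11, like that of the wider endothelial list (-0.11). For comparison, the summed intensity of the 10 members ranged from 7850.4 to 8931 in control-diet FLOX mice, 7273 to 7848 in CR FLOX mice, 7363 to 8755 in control-diet mice labelled MKO and 6103 to 7379.8 in CR mice labelled MKO. The part of the fibroblast markers in the diet result was not tested.

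In mice labelled MKO against FLOX mice, averaged over diets, 5 of the 16 pericyte and smooth muscle markers were called lower and 2 higher. Their median was -0.11, close to that of the members (-0.12). Of all genes 18.1% were called lower there, 14.9% higher and 33% in either direction, which is the background for the other genotype counts that follow. Notch3 was 1.21-fold lower (adjusted p = 8.98e-07) and Abcc9, also a gene of the muscle fibre, 1.18-fold higher (adjusted p = 2.53e-06). Of 12 fibroblast markers 3 were lower and 2 higher (median -0.03), and of 14 macrophage markers 1 was lower and 0 higher (median -0.03). Of 4 platelet markers 2 were lower and 0 higher (median -0.08). Of 9 slow fibre genes 3 were called higher in the same comparison and 0 lower, among them Myl3 at 1.92-fold (adjusted p = 6.66e-05), and the summed intensity of the list ranged from 6179 to 14197 in control-diet FLOX mice and from 9460.2 to 15943 in control-diet mice labelled MKO. On CR these ranges were 7914 to 11862 (median 11345) and 11553 to 28412 (median 13930). The values of 14197 and 28412 came from the arrays rich in slow fibre transcripts, control-diet FLOX mouse 1 and CR mouse 6 labelled MKO. The control-diet medians were 8177 in FLOX mice and 13070 in mice labelled MKO. Within groups, the mean deviation of the 10 members was set against that of Myh7, Tnni1 and Tnnt1, not of the whole slow fibre list. Over the 26 mice the Pearson r was -0.02. Of 3 adipocyte genes 0 were called in either averaged comparison; of 3 red blood cell genes 1 was higher on CR, and 1 of 11 fast fibre genes was higher in mice labelled MKO and 2 on CR. The part of any of these cells in the genotype result was not tested.

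**Figure D4:**
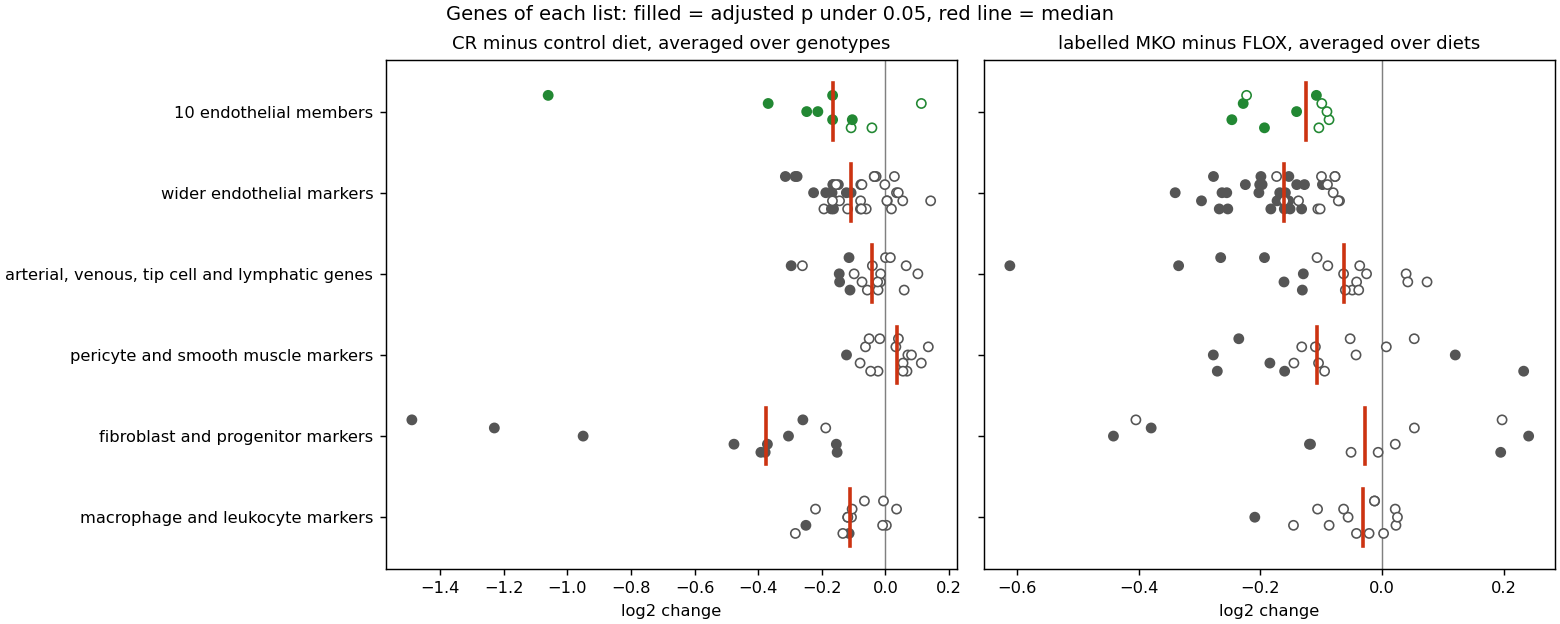
Log2 change of each tested gene, 1 point per gene, for the 10 endothelial markers (green) and 5 context lists (grey), on CR against the control diet averaged over genotypes (left) and in mice labelled MKO against FLOX averaged over diets (right); filled points passed an adjusted p of 0.05 and red lines are list medians. Fibroblast and progenitor markers have the lowest median for diet (-0.37) and the wider endothelial list has the lowest for genotype (-0.16).

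How far the members moved together from mouse to mouse was described after subtracting each group's mean, so that diet and genotype drop out. Over the 26 mice the 45 pairs of members had a median Pearson r of 0.26, 38 pairs were positive and 8 exceeded 0.5. Cdh5 and Tek were the closest pair (0.69), followed by Pecam1 and Tie1 (0.68). The receptor pair Tek and Tie1 had r = 0.54, the junction pair Pecam1 and Cdh5 0.50, and the sialomucins Emcn and Cd34 0.41. Kdr and Flt1 had r = -0.11, and Flt1 and Emcn the lowest value, -0.21. Nos3 had no r above 0.33 with any other member. All values of a mouse come from 1 array and share its scaling, so part of any r is common to the array. The largest spread within a group was that of Aplnr in CR FLOX mice, with a standard deviation of 26.8% of the mean, and the smallest that of Emcn in CR mice labelled MKO, 3.13%.

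**Figure D5:**
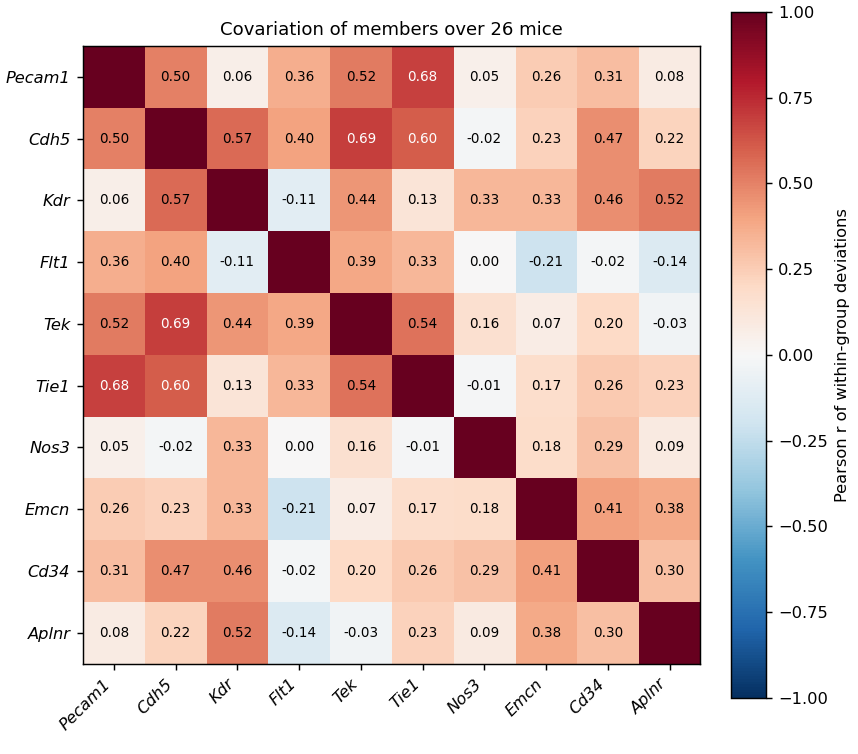
Pearson correlation of within-group deviations (log2 value minus its group's mean) over 26 mice for every pair of the 10 endothelial markers, on a colour scale from -1 (blue) to 1 (red). A block of Pecam1, Cdh5, Tek and Tie1 has values of 0.50 to 0.69, while Flt1 and Nos3 have values of 0.40 or less with every other marker.

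The genes whose deviations were most like the mean of the members' deviations were sought among the other 14844 genes. Mmrn2, a matrix protein of vessel walls and itself on the wider endothelial list, came first (r = 0.90). It was followed by Zc3hav1 (0.82), Slc19a2 (0.76), Ets2 (0.75), Srgn (0.75), Myc (0.74), Gulp1 (0.73), Efhd2 (0.73), Tppp3 (0.73) and Cdk17 (0.72). The 37 tested genes of the wider endothelial list had a median r of 0.35, against 0.02 over all genes, and 3 of them were among the nearest 50 genes. Mmrn2 itself was 1.12-fold lower on CR (adjusted p = 0.0148) and 1.1-fold lower in mice labelled MKO (adjusted p = 0.0387) in the averaged comparisons.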

How the data were processed

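Total RNA of TA/EDL muscle was extracted with Trizol, cleaned on columns, labelled as biotin cRNA and hybridised to 1-colour Affymetrix arrays, 1 per mouse, per the labels' protocols. The deposited table holds 1 intensity per probe set and array on a linear scale; the authors' background correction, probe summary and normalisation are steps not given in the sources used here. Array minima of 56.6 to 62.8 compress folds of dim genes. The number of arrays limits the precision.

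The deposited intensity was taken as log2(intensity + 16) without further normalisation, and fold changes are on that scale. Probe sets with exactly 1 gene symbol in the platform annotation and a mean above the 30th percentile were kept, and the brightest probe set stood for each gene (14854 genes). Of 45101 probe sets, 34945 had 1 symbol, 932 several and 9160 none, beside 64 control probe sets. limma 3.58.1 in R 4.3.3 fitted 1 mean per group over all 26 arrays, with Benjamini-Hochberg adjustment over all genes and a call at an adjusted p under 0.05. The fit was tested on simulated data with planted changes in 1 comparison. These were larger than most changes of the members, so recovery of changes as small as theirs was not tested. Arrays of a group correlated at 0.984 to 0.996.

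Named genes are all members, Ppargc1a, per context list and comparison up to 2 called genes of lowest p, and the 10 genes most like the members' mean deviation. The members and all lists were chosen with earlier results of these data known. Alternatives varied the pseudocount, filter, scaling, probe set rule, variance model, threshold, replicate block and arrays. Replicate numbers were not treated as pairs in the main fit. Of 37 same-numbered pairs across groups 16 had a correlation of deviations over 0.1. Their median was 0.08, against -0.01 for differently numbered pairs across groups, and what lies behind this difference was not tested.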

Additional observations from a re-analysis of the deposited data

Results flagged for a closer look

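Of the 40 sets of values (10 members in 4 groups) checked for 1 mouse far from the others, 5 were picked out, where chance gives about 1 in 20. For Cdh5, control-diet mouse 4 labelled MKO was at 1587 against 1357 for its nearest neighbour, a gap of 0.625 of the group's range. Also for Cdh5, CR FLOX mouse 5 was at 1357 against 1265 (0.649 of the range). For Kdr, control-diet FLOX mouse 1, an array rich in slow fibre transcripts, was at 1427 against 1221 (0.798). For Nos3, control-diet FLOX mouse 2 was at 594 against 555 (0.65). For Emcn, CR mouse 3 labelled MKO was at 337 against 355 (0.575), the 1 case of the 5 in which the mouse was the lowest of its group.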

How the results depend on the processing

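The members called lower on CR were Aplnr, Cd34 and Emcn in FLOX mice, and each stayed called under all 39 alternatives that kept the adjusted p of 0.05. Of the 7 members called in mice labelled MKO, 6 did (not Cdh5), and in the average over genotypes 6 of 7 under all 38 (not Nos3). For genotype, Nos3 and Tie1 of 4 on the control diet, Nos3 alone of 5 on CR, and 4 of 5 in the average (not Tek, whose adjusted p was 0.0832 with median centring) stayed called. Leaving out 1 mouse at a time gave 3 to 4 members for diet in FLOX mice, 6 to 7 in mice labelled MKO, 6 to 8 averaged, and for genotype 2 to 5 on the control diet, 3 to 6 on CR, 5 to 7 averaged, and 0 in the test of differing diet effects. The genotype count on the control diet of 4 fell to 2 without control-diet FLOX mouse 6 or control-diet mouse 6 labelled MKO, and at an adjusted p under 0.01. The count on CR of 5 was 1 at an adjusted p under 0.01, 2 with median centring, 3 with quantile normalisation, and 3 without the arrays rich in slow fibre transcripts. It was also 3 without any of CR FLOX mice 2, 4, 5 and 6 or CR mice 3, 4, 6 and 7 labelled MKO. Causes were not tested.

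The replicate number was also used as a block, although only 2 of 26 arrays correlated best with an array of their own number. This gave 3 members for genotype on CR, where Flt1 (adjusted p = 0.0717) and Tie1 (0.0672) were lost. On the control diet Flt1 was lost (0.0666) and Aplnr was gained (0.03). Aplnr was also gained in the average over diets (0.0253).

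Signs turned in 38 of the single-member values, none of them called and none larger than 0.07 on the log2 scale. With quantile normalisation Pecam1 was at 0.0044 for diet in mice labelled MKO and Flt1 at 0.0031 for the difference of diet effects. With median centring Kdr was at -0.000224 for diet in FLOX mice, and with probe sets averaged Cdh5 was at 0.0083 for the difference of diet effects. For that difference array weights gave -0.0027 for Emcn and 0.0086 for Flt1, and leaving out the arrays rich in slow fibre transcripts gave -0.0246 and 0.038. Leaving out single mice gave ranges that crossed 0: -0.0219 to 0.0302 for Emcn and -0.0345 to 0.0509 for Flt1 in that difference, -0.0694 to 0.0472 for Kdr with diet in FLOX mice, -0.0554 to 0.0207 for Pecam1 with diet in mice labelled MKO, and -0.182 to 0.0041 for Aplnr with genotype on CR.

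Over all genes, the counts called for diet in FLOX mice, in mice labelled MKO and averaged, and for genotype on the control diet, on CR and averaged, were 1490, 2246, 3542, 2865, 2567 and 4897. At an adjusted p under 0.01 they were 669, 1111, 2222, 1639, 1531 and 3241. With every probe set tested, so that probe sets and not genes were counted, they were 2539, 3832, 6244, 4682, 4380 and 8287. Dim signal near the array minimum limits what can be read from weak probe sets.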
